A study of Arabidopsis thaliana with 9 samples.

Results

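The transcripts of 40 genes that act in mitosis and cytokinesis were followed in Arabidopsis thaliana root tips of 3 genotypes. The 40 genes, out of 33560 in the expression table, were chosen by identifier for what they are known to do, with earlier results of these data known. They comprise 8 B-type cyclins, 5 A-type cyclins, 5 genes for CDKB kinases and the kinase partner CKS2, 2 MYB3R factors, 6 activators of the anaphase-promoting complex and spindle checkpoint genes, 8 genes for Aurora kinases, spindle and chromosome proteins, and 6 genes of the phragmoplast and cytokinesis. Of these, 39 had a mean of at least 1 FPKM (fragments per kilobase of transcript scaled to the mapped fragments of the library) over the 9 libraries and were tested. Only CYCA2;1 fell below that level.

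In plants, cells enter mitosis when cyclin-dependent kinases of the A and plant-specific B classes are bound by A- and B-type cyclins. Many genes of this phase are transcribed in a burst at G2/M under MYB3R factors, which bind a promoter element with the core AACGG. The spindle checkpoint delays anaphase until chromosomes are attached, the anaphase-promoting complex then has the cyclins degraded, and a plant-specific array of microtubules and vesicles, the phragmoplast, builds the new cell wall. In the root these events take place mainly in the meristem near the tip, and cells above it elongate, differentiate and form root hairs.

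The series compared Col-0, the reference strain, with plants of the genotypes seu-3 and wox5-1, with 3 libraries per genotype. WOX5 encodes a homeodomain transcription factor of the root stem cell niche and SEU (SEUSS) a transcriptional co-regulator, so the comparisons ask what root tips with each mutant allele contain relative to the reference. All seedlings were 5 days old, had been kept cold for 2 days as seeds, and grew upright with 1% sucrose under a cycle of 16 h light and 8 h dark. The submitters give the length of root collected as roughly 1 mm in one place and 3 mm in another, in a protocol that also mentions sorted AGL42:GFP cells that are not analysed here. Nothing says that the libraries of a genotype came from separate sowings, so the p-values rest only on how these samples spread, which may be technical.

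The mutated genes were checked first. WOX5 was at 0.301, 0.461 and 0.524 FPKM in Col-0, at 0.0884, 0 and 0 FPKM in seu-3 and at 0 in all 3 wox5-1 libraries (exact two-sided permutation p = 0.1 for each mutant, the smallest that 3 against 3 allows). SEU was at 13.2 to 18.7 FPKM in Col-0, 4.19 to 5.22 FPKM in seu-3 and about 13 FPKM in wox5-1. The 17062 tested genes had a median log2 change of 0.05 in wox5-1, -0.24 in seu-3 and -0.27 for seu-3 against wox5-1, so changes of the 40 genes are also given relative to these medians. Single libraries stood apart within genotypes. In seu-3 replicate 3, 34 of the 40 genes had their lowest value of all 9 libraries, and over the 40 the median value was 0.458 times the mean of the other 2 seu-3 libraries. In wox5-1 replicate 1, 33 had their highest value. In bulk tissue, fewer cells of a type and less RNA per cell cannot be told apart.

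Transcripts of the 40 genes were most abundant in wox5-1, intermediate in Col-0 and least abundant in seu-3. Their FPKM summed to 249.7 ± 26.6 (SD, n = 3) in Col-0. The sum was 425 ± 56.8 in wox5-1 and 106 ± 35.8 in seu-3, and the ranges of 231 to 280.2, 375 to 487 and 65.2 to 131 were separate. In 33 of the 39 genes tested every seu-3 library lay below every Col-0 library and every Col-0 library below every wox5-1 library, an order held by 21.7% of all tested genes. The exceptions were CYCB2;1, CYCA2;2, BUB3.1, AUR2, EDE1 and TES. The moderated F test over the 3 genotypes passed for all 39, against 65.6% of tested genes.

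**Figure D1:**
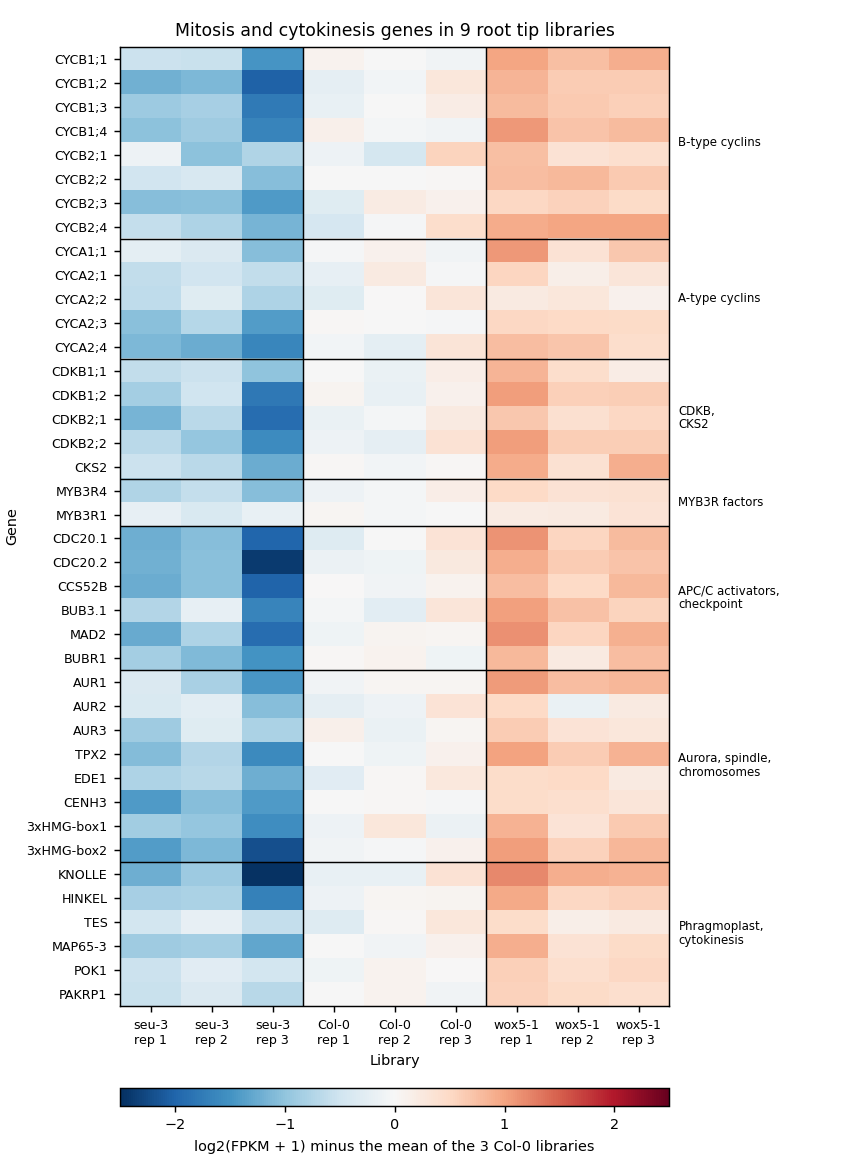
Each row is 1 of the 40 genes, grouped by role, and each column 1 of the 9 libraries. Colour gives log2(FPKM + 1) minus the mean of the 3 Col-0 libraries. The wox5-1 columns lie above the Col-0 mean and the seu-3 columns below it for nearly all genes, and the seu-3 replicate 3 column is the lowest for 34 of the 40.

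Against Col-0, 20 of the 39 tested genes were higher in wox5-1 at an adjusted p below 0.05 (limma, Benjamini-Hochberg over all tested genes), none was lower, and 19 did not pass. Over all tested genes, 13.7% were called higher and 13.5% lower. The median log2 change of the 39 was 0.68, or 0.63 relative to all genes, and single genes ranged from 0.19 (AUR2) to 1.00 (KNOLLE). All 3 wox5-1 libraries lay above all 3 Col-0 libraries for 34 of the 39, against 30.2% of all tested genes. The number called rested on single libraries. Leaving out Col-0 replicate 1, 2 or 3 gave 3, 0 and 8 genes in that order. Leaving out wox5-1 replicate 1 gave 0 and replicate 3 gave 7, and with seu-3 replicate 1 or 3 left out the count was 11 or 31. All 39 had a positive estimate in each of these fits. None of the 20 calls held without Col-0 replicate 2 or without wox5-1 replicate 1, including those whose losses are not listed below.

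In seu-3, 33 of the 39 were lower than in Col-0, none was higher and 6 did not pass. Over all tested genes, 34.2% were called lower and 6.66% higher, and after median-ratio scaling of the libraries these calls were nearly even, with 3186 genes higher and 2934 lower in place of 1136 and 5830. With that scaling the median of all genes moved to 0.01 and 28 of the 39 were still called lower. The median log2 change of the 39 was -1.04, or -0.80 relative to all genes, and the range ran from -1.58 (3xHMG-box2) to -0.26 (MYB3R1). For 36 of the 39 the libraries were in separate ranges, seu-3 below Col-0, against 44.8% of all tested genes. Leaving out 1 library at a time left 27 to 34 calls.

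The direct comparison of the mutants showed all 39 lower in seu-3 than in wox5-1, with a median log2 difference of -1.73, or -1.47 relative to all genes. Over all tested genes 44.6% were called lower and 19.9% higher in seu-3, and after median-ratio scaling 5402 were lower and 5618 higher in place of 7613 and 3400. With that scaling 37 of the 39 were still called lower. For all 39 every seu-3 library was below every wox5-1 library, against 48.6% of all tested genes. The comparisons with Col-0 share the 3 Col-0 libraries, so they are not independent. Of the 39, 20 were called both higher in wox5-1 and lower in seu-3, which held for 8.70% of all tested genes.

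**Figure D2:**
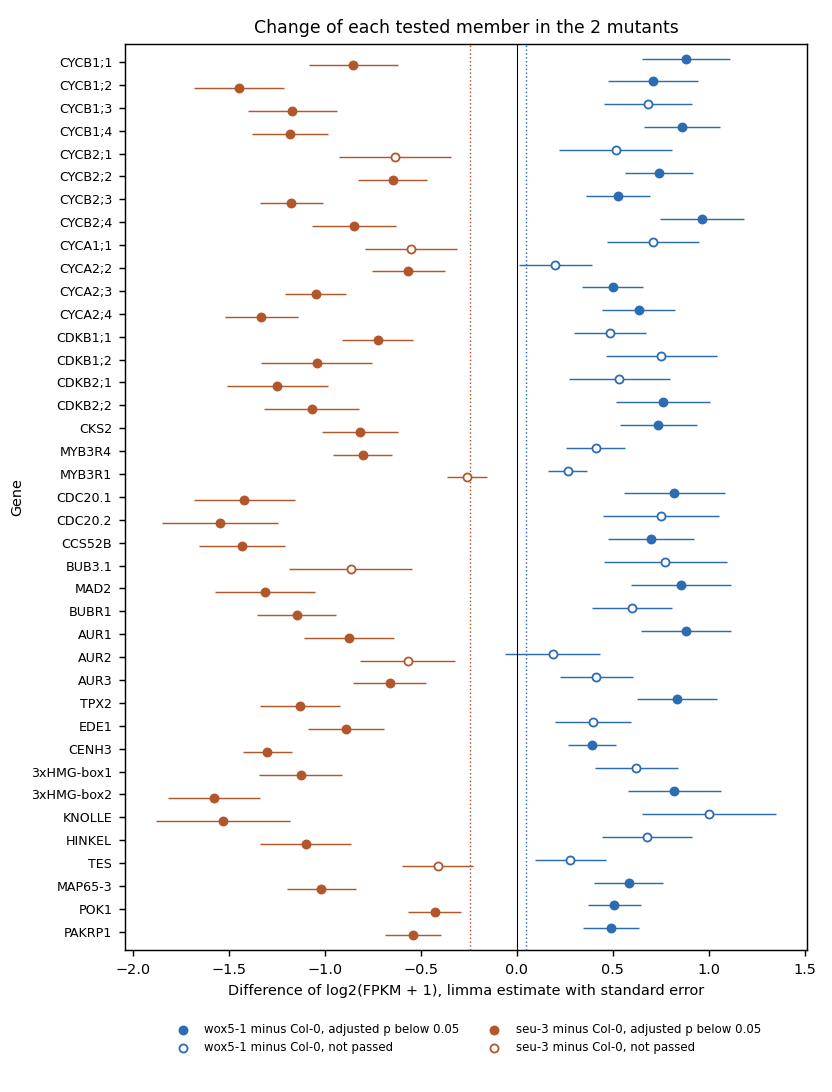
For each tested gene, points give the limma estimate of the difference in log2(FPKM + 1) from Col-0 with its standard error, filled where the adjusted p was below 0.05, and dotted lines mark the median of all tested genes. The wox5-1 estimates lie between 0.19 and 1.00 and those of seu-3 between -1.58 and -0.26.

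B-type cyclins, which activate the mitotic kinases from late G2 until anaphase, were called higher in wox5-1 for 6 of 8 genes and lower in seu-3 for 7 of 8. CYCB1;1 (AT4G37490), often used as a reporter of cells in G2/M, was at 3.94, 3.61 and 3.37 FPKM in Col-0, 2.20, 2.16 and 0.675 FPKM in seu-3 and 8.16, 6.83 and 7.67 FPKM in wox5-1. The 3 genotypes did not overlap, and seu-3 replicate 3 was the lowest library by far. The log2 change was 0.88 ± 0.23 (adjusted p = 0.0246) in wox5-1 and -0.85 ± 0.23 (adjusted p = 0.0168) in seu-3. The wox5-1 call of CYCB1;1 was lost without any 1 Col-0 library (adjusted p from 0.0502 to 0.0747). It was also lost without wox5-1 replicate 1 or 3 (0.0884 and 0.0532) and with a pseudocount of 0.1 FPKM (0.0660). CYCB1;2 (AT5G06150) was the most abundant B-type cyclin in Col-0, with 8.26, 9.22 and 12.2 FPKM in Col-0, 3.71, 3.92 and 1.65 FPKM in seu-3 and 18.4, 15.8 and 15.6 FPKM in wox5-1. It changed by 0.71 ± 0.23 (adjusted p = 0.0491) in wox5-1 and -1.45 ± 0.23 (adjusted p = 0.00363) in seu-3, again without overlap. The wox5-1 call of CYCB1;2 was lost without Col-0 replicate 1 or 2 (adjusted p = 0.131 for each) and without any 1 wox5-1 library (0.0760 to 0.157). It was also lost without seu-3 replicate 1 (0.0595), with the replicate block (0.0799), a pseudocount of 0.1 FPKM (0.0852), no filter (0.0764) or no variance trend (0.0526).

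CYCB1;3 (AT3G11520) was at 4.88, 5.60 and 6.56 FPKM in Col-0, 2.55, 2.73 and 0.953 FPKM in seu-3 and 10.5, 9.45 and 9.09 FPKM in wox5-1. Its seu-3 change was -1.17 ± 0.23 (adjusted p = 0.00559), while its wox5-1 change of 0.68 ± 0.23 (adjusted p = 0.0514) did not pass although the libraries did not overlap. CYCB1;4 (AT2G26760) was at 4.96, 4.25 and 4.13 FPKM in Col-0, 1.68, 1.94 and 0.744 FPKM in seu-3 and 10.5, 7.92 and 8.35 FPKM in wox5-1, also in separate ranges. Among the B2 cyclins, CYCB2;2 (AT4G35620) was at 1.95, 1.95 and 2.04 FPKM in Col-0, 1.14, 1.26 and 0.421 FPKM in seu-3 and 4.06, 4.20 and 3.68 FPKM in wox5-1. Its Col-0 values were nearly equal, and it changed by 0.74 ± 0.18 (adjusted p = 0.0196) in wox5-1 and -0.65 ± 0.18 (adjusted p = 0.0185) in seu-3, the second call being lost without Col-0 replicate 3 (adjusted p = 0.0539) and with median-ratio scaling (adjusted p = 0.0529). The wox5-1 call was lost without Col-0 replicate 2 (adjusted p = 0.0636), without wox5-1 replicate 1 (0.0672) and with a pseudocount of 0.1 FPKM (0.0621).

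CYCB2;3 (AT1G20610) was at 2.91, 4.57 and 4.18 FPKM in Col-0, 1.30, 1.36 and 0.808 FPKM in seu-3 and 5.91, 6.21 and 5.77 FPKM in wox5-1, with changes of 0.53 ± 0.17 (adjusted p = 0.0427) and -1.18 ± 0.17 (adjusted p = 0.00253). CYCB2;4 (AT1G76310), whose Col-0 libraries spread from 2.47 to 5.29 FPKM, was at 2.47, 3.50 and 5.29 FPKM in Col-0, 2.04, 1.70 and 1.06 FPKM in seu-3 and 7.76, 8.11 and 8.13 FPKM in wox5-1. The wox5-1 libraries of CYCB2;4 agreed within a narrow range and lay above all others. CYCB2;1 (AT2G17620) was the exception in the class, at 1.42, 0.947 and 2.86 FPKM in Col-0, 1.42, 0.296 and 0.558 FPKM in seu-3 and 3.45, 2.37 and 2.54 FPKM in wox5-1. Its Col-0 libraries overlapped those of both mutants, the estimates of 0.51 ± 0.29 (adjusted p = 0.197) and -0.63 ± 0.29 (adjusted p = 0.108) did not pass, and only the difference between the mutants did (-1.15 ± 0.29, adjusted p = 0.00669).

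The promoters of the B-type cyclins were read because AACGG is the core of the element that MYB3R factors bind. Both strands of the 300 bases before the annotated gene start (RefSeq, TAIR10.1) were searched for AACGG, which reads CCGTT when it lies on the strand opposite to the gene. It was present in 7 of the 8 B-type cyclins, with 3 or more copies in 6. The last 180 bases before the start are shown for those 6 and for CYCB1;4, the one without a copy, each 5′ to 3′ on the strand of the gene, with AACGG and CCGTT in capitals.
CYCB1;1: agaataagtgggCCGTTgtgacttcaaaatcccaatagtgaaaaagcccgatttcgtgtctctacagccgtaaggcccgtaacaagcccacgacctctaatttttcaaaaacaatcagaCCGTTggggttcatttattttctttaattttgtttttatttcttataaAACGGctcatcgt
CYCB1;2: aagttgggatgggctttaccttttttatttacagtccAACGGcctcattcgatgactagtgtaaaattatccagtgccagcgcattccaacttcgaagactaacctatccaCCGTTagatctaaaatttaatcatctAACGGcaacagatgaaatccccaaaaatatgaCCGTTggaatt
CYCB1;3: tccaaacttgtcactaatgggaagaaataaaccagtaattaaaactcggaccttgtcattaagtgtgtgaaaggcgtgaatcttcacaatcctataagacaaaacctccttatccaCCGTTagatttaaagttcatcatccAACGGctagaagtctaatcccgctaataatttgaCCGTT
CYCB2;1: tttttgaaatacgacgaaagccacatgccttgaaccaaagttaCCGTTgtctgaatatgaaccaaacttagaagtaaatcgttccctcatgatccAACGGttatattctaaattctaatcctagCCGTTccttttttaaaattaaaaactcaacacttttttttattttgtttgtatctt
CYCB2;2: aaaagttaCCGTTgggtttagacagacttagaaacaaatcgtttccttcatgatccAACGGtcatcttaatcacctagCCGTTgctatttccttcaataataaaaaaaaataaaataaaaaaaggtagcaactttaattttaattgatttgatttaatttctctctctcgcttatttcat
CYCB2;3: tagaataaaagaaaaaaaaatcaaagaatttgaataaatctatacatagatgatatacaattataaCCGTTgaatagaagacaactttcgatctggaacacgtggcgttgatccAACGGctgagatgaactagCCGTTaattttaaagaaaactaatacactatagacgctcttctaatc
CYCB1;4: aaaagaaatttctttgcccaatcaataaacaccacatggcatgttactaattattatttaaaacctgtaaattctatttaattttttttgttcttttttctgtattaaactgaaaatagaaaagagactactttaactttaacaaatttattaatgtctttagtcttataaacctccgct
These stretches are chr4:17624309-17624488 on the minus strand for CYCB1;1, chr5:1861704-1861883 on the minus strand for CYCB1;2, chr3:3627274-3627453 on the minus strand for CYCB1;3, chr2:7663875-7664054 on the plus strand for CYCB2;1, chr4:16901416-16901595 on the plus strand for CYCB2;2, chr1:7137829-7138008 on the minus strand for CYCB2;3 and chr2:11400938-11401117 on the plus strand for CYCB1;4. In 5 of them (CYCB1;2, CYCB1;3, CYCB2;1, CYCB2;2 and CYCB2;3) 3 neighbouring copies alternate, opposite strand first, then the strand of the gene, then the opposite strand. From the first to the second the step was 25 or 26 bases in the B1 cyclins and 48 or 52 in the B2 cyclins, and from the second to the third 32 or 34 bases in the B1 cyclins and 19 to 29 in the B2 cyclins. The arrangement was looked for after these sequences had been seen. It was present in 5 of the 40 promoters (12.5%) and in 33 of 27443 protein-coding promoters (0.12%). CYCB1;4, with no copy in its window, changed by 0.86 ± 0.20 (adjusted p = 0.0165) in wox5-1 and -1.18 ± 0.20 (adjusted p = 0.00417) in seu-3, within the range of the cyclins that hold 3 or more.

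Among all 40 genes, AACGG was present in 27 windows (67.5%) and in at least 2 copies in 14 (35.0%), against 23.4% and 4.53% of 27443 protein-coding genes. In the 100 bases next to the start the shares were 47.5% and 9.94%. All 6 phragmoplast genes held it, as did 6 of 8 genes for Aurora kinases, spindle and chromosomes, 3 of 5 A-type cyclins and 1 of 5 genes for CDKB and CKS2 (AT2G27970). As examples outside the cyclins, the same 180 bases are shown for the cytokinesis gene KNOLLE (AT1G08560) and for MAP65-3 (AT5G51600).
KNOLLE: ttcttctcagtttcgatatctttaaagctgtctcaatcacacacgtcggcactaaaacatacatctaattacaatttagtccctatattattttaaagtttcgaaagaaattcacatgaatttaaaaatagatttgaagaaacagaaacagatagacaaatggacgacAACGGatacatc
MAP65-3: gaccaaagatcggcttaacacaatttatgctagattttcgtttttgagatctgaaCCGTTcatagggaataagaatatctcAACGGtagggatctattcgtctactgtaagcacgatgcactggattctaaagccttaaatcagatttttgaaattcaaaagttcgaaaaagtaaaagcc
They are chr1:2711001-2711180 on the minus strand and chr5:20964538-20964717 on the minus strand. The median log2 change of the 26 tested genes with the motif was 0.70 in wox5-1 and -1.03 in seu-3, and that of the 13 without it 0.60 and -1.04. Of those with it 16 were called higher in wox5-1 and 21 lower in seu-3, and of those without it 4 and 12. The difference between genes with and without it was not tested. A match describes these letters only, and 12 of the 40 windows reach into another annotated gene.

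**Figure D3:**
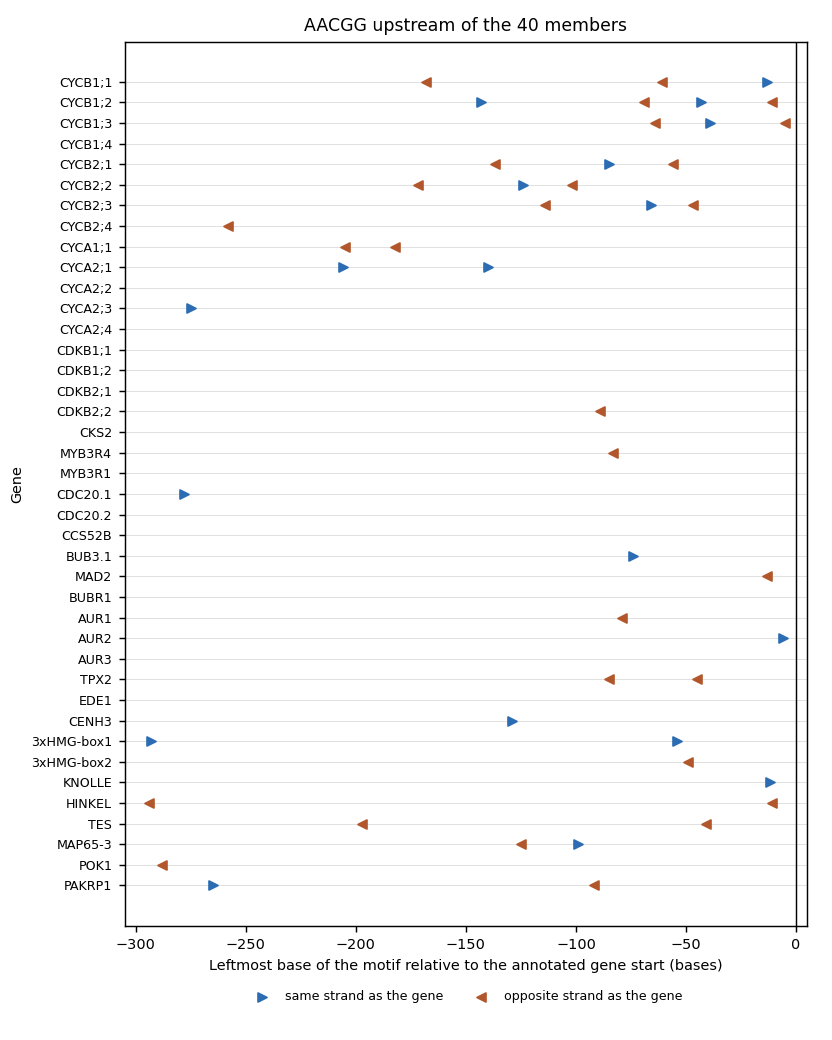
Each line is 1 of the 40 windows of 300 bases, and each mark is the leftmost base of an AACGG core relative to the annotated gene start, by strand. Of 48 copies, 27 lie within 100 bases of the start, and 13 windows hold none.

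Of the A-type cyclins, which act from S phase to early mitosis, 2 of the 4 tested were called higher in wox5-1 and 3 lower in seu-3. CYCA2;3 (AT1G15570) was at 6.94, 6.71 and 6.56 FPKM in Col-0, 2.76, 3.74 and 1.95 FPKM in seu-3 and 10.04, 9.93 and 9.84 FPKM in wox5-1. The replicates were close in Col-0 and wox5-1, and the changes were 0.50 ± 0.16 (adjusted p = 0.0442) and -1.05 ± 0.16 (adjusted p = 0.00308). The wox5-1 call of CYCA2;3 was lost on leaving out any 1 Col-0 or wox5-1 library (adjusted p from 0.0786 to 0.123). It was also lost without seu-3 replicate 1 (0.0649), with the replicate block (0.0604), no filter (0.0674) or a pseudocount of 0.1 FPKM (0.0713). CYCA2;4 (AT1G80370) was at 4.74, 4.07 and 6.47 FPKM in Col-0, 1.77, 1.55 and 0.931 FPKM in seu-3 and 9.27, 8.69 and 7.15 FPKM in wox5-1. It changed by 0.63 ± 0.19 (adjusted p = 0.0365) and -1.33 ± 0.19 (adjusted p = 0.00257), also without overlap.

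CYCA1;1 (AT1G44110) was at 2.38, 2.74 and 2.27 FPKM in Col-0, 1.93, 1.69 and 0.664 FPKM in seu-3 and 6.31, 3.46 and 4.55 FPKM in wox5-1. Its ranges were separate, but neither 0.71 ± 0.24 (adjusted p = 0.0532) in wox5-1 nor -0.55 ± 0.24 (adjusted p = 0.0903) in seu-3 passed, and the mutants differed by -1.26 ± 0.24 (adjusted p = 0.00136). CYCA2;2 (AT5G11300) was at 0.824, 1.24 and 1.75 FPKM in Col-0, 0.447, 0.817 and 0.321 FPKM in seu-3 and 1.61, 1.73 and 1.40 FPKM in wox5-1. Its wox5-1 and Col-0 libraries overlapped (0.20 ± 0.19, adjusted p = 0.435). The seu-3 call for CYCA2;2 (-0.57 ± 0.19, adjusted p = 0.0402) was lost on leaving out any 1 of 7 of the 9 libraries, with adjusted p up to 0.140 (without Col-0 replicate 3). It was also lost with median-ratio scaling (0.0857) and with the replicate block (0.0625). CYCA2;1 (AT5G25380), not tested, was listed at 0.333, 0.803 and 0.512 FPKM in Col-0, 0, 0.109 and 0 FPKM in seu-3 and 1.24, 0.712 and 0.903 FPKM in wox5-1, and its wox5-1 values overlapped those of Col-0.

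All 4 CDKB genes, the plant-specific kinases that peak from G2 to mitosis, and CKS2, a small protein that docks on these kinases, were called lower in seu-3. In wox5-1 CDKB2;2 (AT1G20930) and CKS2 were called higher, and the other 3 did not pass. CKS2 was at 25.5, 23.9 and 25.3 FPKM in Col-0, 16.9, 15.3 and 9.94 FPKM in seu-3 and 48.1, 32.6 and 47.7 FPKM in wox5-1. Its genotypes were well separated, with changes of 0.74 ± 0.20 (adjusted p = 0.0276) in wox5-1 and -0.82 ± 0.20 (adjusted p = 0.0113) in seu-3. CDKB2;2 was at 5.19, 4.79 and 7.70 FPKM in Col-0, 3.26, 2.48 and 1.28 FPKM in seu-3 and 12.95, 9.43 and 9.40 FPKM in wox5-1. Its changes were 0.76 ± 0.25 (adjusted p = 0.0465) and -1.07 ± 0.25 (adjusted p = 0.00906).

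CDKB2;1 (AT1G76540), the closest paralog of CDKB2;2, was at 8.98, 9.73 and 11.99 FPKM in Col-0, 3.99, 5.95 and 1.99 FPKM in seu-3 and 16.9, 13.7 and 15.03 FPKM in wox5-1. Its seu-3 change was -1.25 ± 0.26 (adjusted p = 0.00665) and its wox5-1 change 0.53 ± 0.26 (adjusted p = 0.143). CDKB1;1 (AT3G54180) was at 13.8, 12.2 and 15.6 FPKM in Col-0, 8.60, 9.15 and 6.34 FPKM in seu-3 and 25.5, 18.9 and 15.8 FPKM in wox5-1. One wox5-1 library was only just above the highest Col-0 library, and the estimates were 0.49 ± 0.19 (adjusted p = 0.0755) and -0.73 ± 0.19 (adjusted p = 0.0137). CDKB1;2 (AT2G38620) had estimates of 0.75 ± 0.29 (adjusted p = 0.0767) and -1.04 ± 0.29 (adjusted p = 0.0188). Without Col-0 replicate 3 the seu-3 calls of CDKB1;1 (adjusted p = 0.0508) and CDKB1;2 (adjusted p = 0.0591) were lost, and the first also with median-ratio scaling (adjusted p = 0.0624). The paralogs CDKB2;1 and CDKB2;2 are 86.0% identical over 957 bases, so the authors' assignment of reads could split between them.

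Of the MYB3R factors, MYB3R4 (AT5G11510), an activator of G2/M genes, was at 2.00, 2.16 and 2.64 FPKM in Col-0, 0.940, 1.15 and 0.568 FPKM in seu-3 and 3.61, 3.16 and 3.24 FPKM in wox5-1. It changed in seu-3 by -0.80 ± 0.15 (adjusted p = 0.00536) and was estimated at 0.41 ± 0.15 (adjusted p = 0.0716) in wox5-1. MYB3R1 (AT4G32730), which can activate or repress G2/M genes, was at 9.0, 8.29 and 8.61 FPKM in Col-0, 7.41, 6.35 and 7.42 FPKM in seu-3 and 10.1, 10.3 and 11.2 FPKM in wox5-1. The MYB3R1 ranges were narrow and separate, yet neither mutant differed from Col-0 at the threshold (adjusted p = 0.0785 in wox5-1 and 0.0676 in seu-3). The difference between the mutants was -0.52 ± 0.10 (adjusted p = 0.0016), with an adjusted p of 0.0988 after median-ratio scaling. The level of MYB3R4 relative to MYB3R1 was 0.223 to 0.307 in Col-0, 0.0765 to 0.180 in seu-3 and 0.288 to 0.355 in wox5-1.

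The activators of the anaphase-promoting complex, the ubiquitin ligase that triggers anaphase and mitotic exit, and the spindle checkpoint genes had the lowest median change of log2(FPKM + 1) in seu-3 of the 7 role groups, -1.37, with 5 of 6 called lower there and 3 of 6 called higher in wox5-1. CDC20.1 (AT4G33270) was at 9.67, 12.3 and 16.0 FPKM in Col-0, 4.76, 5.43 and 2.40 FPKM in seu-3 and 28.4, 18.5 and 22.1 FPKM in wox5-1. Every wox5-1 library was above every Col-0 library, and the changes were 0.82 ± 0.26 (adjusted p = 0.0457) and -1.42 ± 0.26 (adjusted p = 0.00496). CDC20.2 (AT4G33260), its neighbour on chromosome 4, was at 8.86, 9.14 and 11.9 FPKM in Col-0, 3.74, 4.26 and 1.08 FPKM in seu-3 and 19.5, 15.8 and 16.8 FPKM in wox5-1. It changed by -1.55 ± 0.30 (adjusted p = 0.00557) in seu-3, while 0.75 ± 0.30 (adjusted p = 0.0869) in wox5-1 did not pass. The CDC20 genes are 89.0% identical over 1774 bases, and reads could be shared between them. CCS52B (AT5G13840), an activator of the CDH1 class expressed in mitosis, was at 7.43, 6.86 and 7.83 FPKM in Col-0, 2.53, 3.06 and 1.08 FPKM in seu-3 and 13.3, 10.8 and 13.8 FPKM in wox5-1. It changed by 0.70 ± 0.22 (adjusted p = 0.0455) and -1.43 ± 0.22 (adjusted p = 0.00335).

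Of the spindle checkpoint genes, MAD2 (AT3G25980), an inhibitor of CDC20, was at 6.75, 7.68 and 7.58 FPKM in Col-0, 2.48, 3.90 and 1.22 FPKM in seu-3 and 17.4, 11.01 and 14.4 FPKM in wox5-1. It changed by 0.85 ± 0.26 (adjusted p = 0.0397) in wox5-1 and -1.31 ± 0.26 (adjusted p = 0.00579) in seu-3. BUBR1 (AT2G33560), a checkpoint protein of the BUB1 family, was at 3.16, 3.32 and 2.78 FPKM in Col-0, 1.28, 0.893 and 0.451 FPKM in seu-3 and 6.12, 3.76 and 5.96 FPKM in wox5-1. The second wox5-1 library was the lowest of the 3 by far, and the wox5-1 change of 0.60 ± 0.21 (adjusted p = 0.0554) did not pass, whereas the seu-3 change of -1.15 ± 0.21 (adjusted p = 0.00465) did. BUB3.1 (AT3G19590), which brings checkpoint proteins to kinetochores, passed in neither mutant against Col-0, with 0.77 ± 0.32 (adjusted p = 0.0924) in wox5-1 and -0.86 ± 0.32 (adjusted p = 0.0545) in seu-3, and 1 seu-3 library of 5.27 FPKM lay within the Col-0 range of 5.07 to 7.94 FPKM. The mutants differed in BUB3.1 by -1.64 ± 0.32 (adjusted p = 0.00157).

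Aurora kinases phosphorylate spindle and centromere proteins. Of the 8 genes for these kinases, the spindle and chromosomes, 4 were called higher in wox5-1 and 7 lower in seu-3. AUR1 (AT4G32830) was at 8.77, 9.75 and 9.73 FPKM in Col-0, 7.15, 4.92 and 2.78 FPKM in seu-3 and 20.7, 16.6 and 17.4 FPKM in wox5-1. All wox5-1 values were far above the Col-0 values, and the changes were 0.88 ± 0.23 (adjusted p = 0.0259) in wox5-1 and -0.88 ± 0.23 (adjusted p = 0.0163) in seu-3, the second with an adjusted p of 0.0540 after median-ratio scaling. AUR2 (AT2G25880), its closest paralog (84.8% identical over 828 bases), was at 7.39, 7.97 and 11.5 FPKM in Col-0, 6.53, 7.13 and 3.70 FPKM in seu-3 and 12.8, 7.76 and 10.5 FPKM in wox5-1. AUR2 in wox5-1 overlapped Col-0 (0.19 ± 0.25, adjusted p = 0.579) and its seu-3 estimate was -0.57 ± 0.25 (adjusted p = 0.0911). The AUR2 difference between the mutants of -0.76 ± 0.25 (adjusted p = 0.0225) was lost with seu-3 replicate 3 left out (adjusted p = 0.0752), with wox5-1 replicate 1 or 3 left out (0.0869 and 0.0550) and with median-ratio scaling (0.104). The difference in response between AUR1 and AUR2 was not tested.

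AUR3 (AT2G45490), which acts at centromeres, ranged from 1.17 to 1.63 FPKM in Col-0, 0.316 to 0.956 FPKM in seu-3 and 1.94 to 2.74 FPKM in wox5-1. Its seu-3 call (-0.66 ± 0.19, adjusted p = 0.0207) was lost on leaving out replicate 1 or 3 of Col-0 (adjusted p = 0.0589 and 0.0603) or replicate 1 or 3 of seu-3 (0.0733 and 0.0681). TPX2 (AT1G03780), which assembles the spindle and activates Aurora, was at 2.93, 2.66 and 3.26 FPKM in Col-0, 0.863, 1.37 and 0.315 FPKM in seu-3 and 6.92, 5.08 and 6.18 FPKM in wox5-1. Its genotypes were separate, with changes of 0.83 ± 0.21 (adjusted p = 0.0217) and -1.13 ± 0.21 (adjusted p = 0.00493). EDE1 (AT2G44190), a microtubule-binding protein of the mitotic array, changed by -0.89 ± 0.20 (adjusted p = 0.00802) in seu-3, and its wox5-1 libraries, at 2.09 to 2.75 FPKM, overlapped Col-0 at 1.16 to 2.15 FPKM.

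CENH3 (AT1G01370), the histone that marks centromeres, was at 5.82, 6.01 and 5.71 FPKM in Col-0, 1.57, 2.26 and 1.57 FPKM in seu-3 and 8.4, 8.15 and 7.42 FPKM in wox5-1. It changed in seu-3 by -1.30 ± 0.13 (adjusted p = 0.000641), and its difference between the mutants (-1.69 ± 0.13, adjusted p = 4.12e-05) had the smallest adjusted p of the 39. In wox5-1 the change was 0.39 ± 0.13 (adjusted p = 0.0459), a call that was lost on leaving out any 1 Col-0 or wox5-1 library (adjusted p from 0.0652 to 0.139) or seu-3 replicate 1 (0.0600), and in 5 other settings, among them the replicate block and median-ratio scaling. The 3xHMG-box proteins bind mitotic chromosomes. 3xHMG-box2 (AT4G23800) was at 16.5, 17.3 and 19.1 FPKM in Col-0, 6.02, 7.50 and 3.08 FPKM in seu-3 and 37.3, 26.9 and 32.2 FPKM in wox5-1. Its estimate in seu-3, -1.58 ± 0.24 (adjusted p = 0.00312), was the lowest of the 39 on the log2(FPKM + 1) scale. By the ratio of mean FPKM, EDE1, CYCA2;4, BUBR1, TPX2, CYCB2;3, CCS52B, CDC20.2, CENH3 and CYCB1;2 fell further (3.195 to 3.77-fold, against 3.188-fold). In wox5-1 3xHMG-box2 changed by 0.82 ± 0.24 (adjusted p = 0.0347). 3xHMG-box1 (AT4G11080) was at 4.28, 6.0 and 4.21 FPKM in Col-0, 2.18, 1.96 and 0.972 FPKM in seu-3 and 9.52, 6.31 and 8.09 FPKM in wox5-1. It changed by -1.13 ± 0.22 (adjusted p = 0.00535) in seu-3, and 0.62 ± 0.22 (adjusted p = 0.0573) in wox5-1 did not pass.

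**Figure D4:**
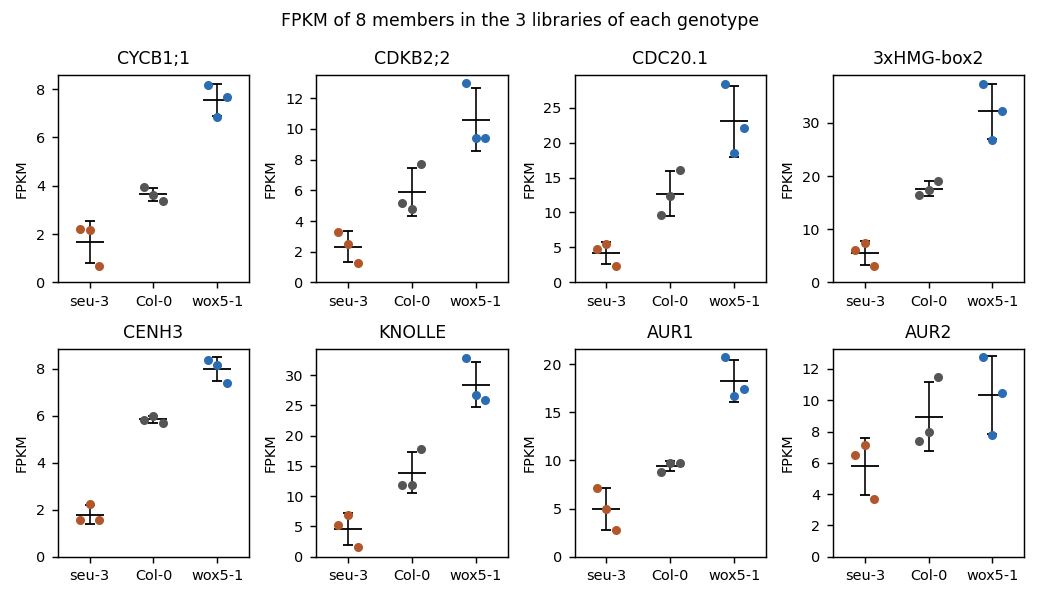
Points are the FPKM of 8 genes in each of the 3 libraries of a genotype, and bars are the mean ± SD (n = 3). AUR1 in wox5-1 (16.6 to 20.7 FPKM) lies above Col-0 (8.77 to 9.75 FPKM), whereas AUR2 in wox5-1 (7.76 to 12.8 FPKM) overlaps Col-0 (7.39 to 11.5 FPKM).

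Of the 6 genes of cytokinesis, 3 were called higher in wox5-1 and 5 lower in seu-3. KNOLLE is the syntaxin that fuses vesicles into the cell plate. It was at 11.9, 11.9 and 17.9 FPKM in Col-0, 5.30, 6.85 and 1.63 FPKM in seu-3 and 32.8, 26.7 and 25.9 FPKM in wox5-1. The wox5-1 libraries lay well above Col-0, but the estimate of 1.00 ± 0.35 (adjusted p = 0.0579), the highest of the 39 on the log2(FPKM + 1) scale, did not pass. The seu-3 change was -1.53 ± 0.35 (adjusted p = 0.00891), and the difference between the mutants, -2.53 ± 0.35 (adjusted p = 0.000248), was the largest of the 39 on that scale. By the ratio of mean FPKM, TPX2 differed more between the mutants (7.13-fold, against 6.19-fold for KNOLLE). HINKEL (AT1G18370), a kinesin that switches on the kinase cascade which expands the phragmoplast, was at 3.84, 4.47 and 4.56 FPKM in Col-0, 1.98, 2.06 and 0.635 FPKM in seu-3 and 9.14, 6.53 and 6.89 FPKM in wox5-1. It changed by -1.10 ± 0.24 (adjusted p = 0.0071) in seu-3, and 0.68 ± 0.24 (adjusted p = 0.057) in wox5-1 did not pass.

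TES (AT3G43210), the paralog of HINKEL best known from cytokinesis after male meiosis, had estimates of 0.28 ± 0.19 (adjusted p = 0.265) and -0.41 ± 0.19 (adjusted p = 0.1), and its Col-0 libraries of 1.41 to 2.65 FPKM overlapped both mutants. MAP65-3, which crosslinks the phragmoplast microtubules, was at 3.88, 3.63 and 4.28 FPKM in Col-0, 1.65, 1.71 and 0.987 FPKM in seu-3 and 8.29, 5.30 and 5.83 FPKM in wox5-1. It changed by 0.58 ± 0.18 (adjusted p = 0.0408) and -1.02 ± 0.18 (adjusted p = 0.00453) with separate ranges. POK1 (AT3G17360), a kinesin that holds the division plane, was at 1.15, 1.46 and 1.31 FPKM in Col-0, 0.585, 0.890 and 0.670 FPKM in seu-3 and 2.46, 2.08 and 2.29 FPKM in wox5-1. It changed by 0.51 ± 0.14 (adjusted p = 0.0281) and -0.43 ± 0.14 (adjusted p = 0.0335), and the seu-3 call was lost in 4 fits with 1 library left out, those lacking replicate 2 or 3 of Col-0 (adjusted p = 0.102 and 0.0807) and replicate 1 or 3 of seu-3 (0.105 and 0.0894), and with median-ratio scaling (0.122). The seu-3 call of POK1 was also lost with the replicate block (0.0654) and with only the 6 samples compared (0.0626). The wox5-1 call of POK1 was lost without any 1 Col-0 library (adjusted p from 0.0605 to 0.0765) and without replicate 1 or 3 of wox5-1 (0.0970 and 0.0596). It was also lost with the replicate block (0.0558) and with a pseudocount of 0.1 FPKM (0.0520). PAKRP1 (AT4G14150), a kinesin of the phragmoplast midzone, was at 1.04, 1.20 and 0.947 FPKM in Col-0, 0.399, 0.606 and 0.268 FPKM in seu-3 and 2.08, 1.85 and 1.77 FPKM in wox5-1. Its changes were 0.49 ± 0.15 (adjusted p = 0.0371) and -0.54 ± 0.15 (adjusted p = 0.0174). The seu-3 call was lost on leaving out Col-0 replicate 2 (adjusted p = 0.0592) or replicate 1 or 3 of seu-3 (0.0501 and 0.0645). The wox5-1 call of PAKRP1 was lost on leaving out any 1 Col-0 or wox5-1 library (adjusted p from 0.0615 to 0.124). It was also lost without seu-3 replicate 1 (0.0560), with the replicate block (0.0597) and with a pseudocount of 0.1 FPKM (0.0945).

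A further 80 genes of mitosis and the cell cycle, listed by identifier, gave 76 that could be tested. In wox5-1, 27 were higher and 2 lower than in Col-0. In seu-3, 51 were lower and none higher. Over all tested genes 13.7% were called higher in wox5-1 and 34.2% lower in seu-3. Their median log2 changes were 0.39 and -0.52, closer to those of all genes than the medians of the 39. The wox5-1 count of higher genes was 7, 5 and 16 on leaving out Col-0 replicate 1, 2 and 3, was 5, 15 and 15 on leaving out those of wox5-1, and was 16 with seu-3 replicate 1 left out. The seu-3 count was 33 when Col-0 replicate 2 or seu-3 replicate 1 was left out, 28 when seu-3 replicate 3 was, and 24 with median-ratio scaling.

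Of 15 genes for subunits and inhibitors of the anaphase-promoting complex and for its other activators, 6 were higher in wox5-1 and 10 lower in seu-3. For each list in this paragraph, the shares over all tested genes were 13.7% higher in wox5-1 and 34.2% lower in seu-3. APC6, a core subunit, changed by -0.87 ± 0.19 (adjusted p = 0.0083) in seu-3, and OSD1, an inhibitor of the complex, by -1.16 ± 0.27 (adjusted p = 0.00924). UVI4, another inhibitor, changed by 0.90 ± 0.22 (adjusted p = 0.0198) in wox5-1. Of 6 tested cohesin, condensin and separase genes, all were lower in seu-3 and 1 was higher in wox5-1. The wox5-1 count is near the share of all tested genes, and the median log2 change there was 0.13, or 0.08 relative to all genes. CAP-E1, a condensin subunit, changed by -0.87 ± 0.14 (adjusted p = 0.00354) in seu-3 and CAP-C, another, by 0.44 ± 0.12 (adjusted p = 0.0292) in wox5-1. Of 12 checkpoint, kinetochore and chromosomal passenger genes, 3 were higher in wox5-1 and 10 lower in seu-3. HASPIN, a kinase of histone H3, changed by 0.85 ± 0.18 (adjusted p = 0.0121) in wox5-1 and CENP-C, which binds centromeres, by -0.98 ± 0.17 (adjusted p = 0.00457) in seu-3.

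Of 19 tested spindle and phragmoplast genes outside the 40, 7 were higher and 1 lower in wox5-1, and 12 were lower in seu-3. All tested genes gave 13.7% higher and 13.5% lower in wox5-1, and 34.2% lower in seu-3. MAP65-1, a microtubule bundler, changed by -0.94 ± 0.15 (adjusted p = 0.00355) in seu-3 and MKK6, a kinase of the phragmoplast cascade, by -0.89 ± 0.13 (adjusted p = 0.00303). ANP1, a kinase at the head of that cascade, was the one lower in wox5-1 (-0.41 ± 0.12, adjusted p = 0.0322), while its homolog ANP3 was higher (0.63 ± 0.18, adjusted p = 0.0305). Of 6 tested MYB3R and E2F regulators, 2 were higher in wox5-1 and 5 lower in seu-3, TSO1, a partner of MYB3R factors, among them in both, with 0.67 ± 0.20 (adjusted p = 0.0337) and -0.70 ± 0.20 (adjusted p = 0.0189).

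Of 12 S phase genes, which act before mitosis, all were lower in seu-3, while in wox5-1 3 were higher and 9 did not pass. The shares over all tested genes were 34.2% lower in seu-3 and 13.7% higher in wox5-1. MCM7, a subunit of the replicative helicase, changed by -1.005 ± 0.22 (adjusted p = 0.00772) in seu-3, and TSO2, which makes nucleotides for replication, by 0.66 ± 0.20 (adjusted p = 0.0378) in wox5-1. The seu-3 count fell to 7 without Col-0 replicate 3 and with median-ratio scaling. The wox5-1 count was 0 when any 1 Col-0 library was left out, was 0, 0 and 1 for wox5-1 replicate 1, 2 and 3, and was 0, 6 and 8 for those of seu-3.

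Among 18 tested CDKs, other cyclins and CDK inhibitors, 8 were higher and 1 lower in wox5-1, and 8 were lower in seu-3. In wox5-1 the shares over all tested genes were 13.7% higher and 13.5% lower. The seu-3 count is near the 34.2% of all tested genes called lower, and the median log2 change of the list there was -0.30, or -0.06 relative to all genes. KRP1, an inhibitor of cyclin-dependent kinases, was the one that was lower, at 2.06, 1.57 and 2.13 FPKM in Col-0, 1.78, 1.48 and 1.92 FPKM in seu-3 and 0.240, 0.207 and 0.254 FPKM in wox5-1. The wox5-1 libraries were far below the others (-1.24 ± 0.14, adjusted p = 0.00128), and seu-3 overlapped Col-0. KRP3, another inhibitor, was at 3.76, 3.198 and 2.13 FPKM in Col-0, 1.51, 2.06 and 1.07 FPKM in seu-3 and 10.1, 6.57 and 7.88 FPKM in wox5-1. KRP3 followed the order of the mitotic genes, with 1.19 ± 0.21 (adjusted p = 0.00636) in wox5-1 and -0.66 ± 0.21 (adjusted p = 0.0345) in seu-3. CYCB3;1, the B3-type cyclin, changed by -0.84 ± 0.19 (adjusted p = 0.0079) in seu-3.

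Markers of other cells were read beside these differences. Root hair genes (COBL9, EXPA7, EXPA18, LRX1 and PRP3) summed to 3007 to 3115 FPKM in Col-0, 3535 to 4356 FPKM in seu-3 and 1984 to 2913 FPKM in wox5-1, and 5 of 5 were higher in seu-3 than in wox5-1. Against Col-0, 2 of these 5 were lower in wox5-1 and 1 was higher in seu-3. Of all tested genes, 19.9% were called higher in seu-3 than in wox5-1. Against Col-0, 13.5% were called lower in wox5-1 and 6.66% higher in seu-3. The highest sum was in seu-3 replicate 3 and the lowest in wox5-1 replicate 1, the libraries with the lowest and highest sums of the mitotic genes. PLT1 and PLT2, regulators of the root meristem, summed to 1.98 to 2.42 FPKM in Col-0, 0.343 to 0.878 FPKM in seu-3 and 2.45 to 5.24 FPKM in wox5-1. Against Col-0, only PLT1 was called in wox5-1 (0.81 ± 0.21, adjusted p = 0.0241) and only PLT2 in seu-3 (-0.73 ± 0.20, adjusted p = 0.0161). Of 5 Casparian strip and 5 xylem vessel markers, none was called in any comparison, and the xylem sums overlapped across genotypes (41.5 to 54.5, 30.4 to 50.5 and 35.1 to 50.1 FPKM). Casparian strip sums overlapped as well (1533 to 2606, 1253 to 1841 and 1358 to 2116 FPKM). Unlike the root hair sum, both sums had their lowest value of the 9 libraries in seu-3 replicate 3 (1253 and 30.4 FPKM). Root cap markers were lower in wox5-1 for 5 of 5, with sums of 71.0 to 91.5 FPKM there against 143 to 176 FPKM in Col-0 and 153 to 164 FPKM in seu-3. In seu-3 they went both ways against Col-0, with SMB at -1.01 ± 0.15 (adjusted p = 0.00283), BFN1 at 0.94 ± 0.18 (adjusted p = 0.00553) and the other 3 not passing. No root hair, Casparian, xylem, root cap or meristem marker was at 0 in any library. The part that the makeup of the tissue has in the changes of the 40 genes was not tested.

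**Figure D5:**
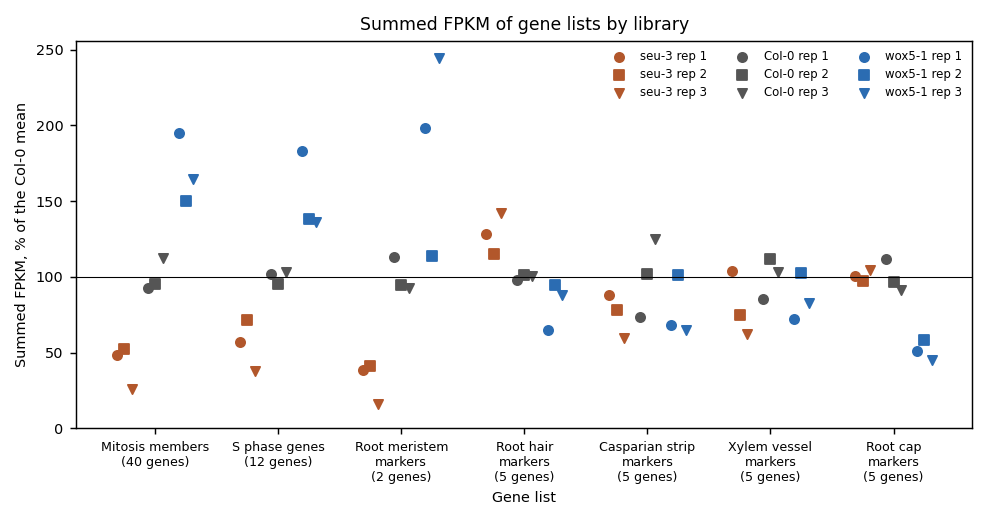
Points give the summed FPKM of each gene list in each library as a percentage of the Col-0 mean, with marker shape for the replicate. The 40 mitotic genes lie at 26.1 to 52.6% in seu-3 and 150.4 to 195% in wox5-1, and the root hair markers at 115 to 142% and 64.6 to 94.9%.

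Without seu-3 replicate 3, 29 of the 39 were still called lower in seu-3, as were 3894 of the 17134 genes tested in that fit. The wox5-1 libraries also held RNA of the pollen arabinogalactan genes AGP23 and AGP40, both at 0 in the other 6 libraries and highest in wox5-1 replicate 3, at 19.7 and 26.7 FPKM. Of the 40 genes, 17 overlap another annotated gene, and strandedness is not stated. Among the 22 tested genes that overlap none, 12 were higher in wox5-1, 19 lower in seu-3 and 22 lower in seu-3 than in wox5-1. Over all tested genes, overlapping or not, the shares were 13.7%, 34.2% and 44.6% in that order.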

How the data were processed

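One RNA sequencing library per sample was made from root tips, with 3 samples for each of 3 genotypes. The deposited values are FPKM computed by the authors with Cufflinks after alignment with Bowtie to TAIR10, per the submitters' processing notes, with versions and annotation not given in the sources used here. FPKM sums ran from 794809 to 839181 per library. Depth is uncertain. It was estimated from the commonest smallest FPKM step, the smoothing was revised after the estimates had been seen, and 3 smoothings gave 2.35 to 11.7 M fragments, the widest range being that of seu-3 replicate 1. No value in the text rests on it.

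The 17062 genes whose 9 libraries averaged 1 FPKM or more entered, as log2(FPKM + 1), which understates changes of low genes, 1 fit of genotype by limma 3.58.1 (R 4.3.3), with an intensity trend and Benjamini-Hochberg adjustment. Log2 changes are given with standard errors. Calls are at an adjusted p below 0.05. The fit was tested on simulated data, with a pass condition that was loosened after a first run. There, with 200 of 17062 genes changed, it mostly found large changes but almost never changes as small as many that did not pass here. Far more genes were called in the real data, so that recovery need not hold for them. A gene that did not pass is still not shown to be unchanged. WOX5 was below the filter and was tested by exact permutation. The 40 genes and all lists were chosen with earlier results of these data known. Values in every library are given for up to 4 called members per role and comparison with the smallest p, plus CYCA2;1, and for CYCB2;1 and AUR2 and the ratios, which were added after their values were seen. Genes of other lists were named from the 4 called with the smallest p per comparison. Promoters, gene overlaps and paralog identities come from RefSeq annotation of TAIR10.1. All 40 genes and 32826 of the 33560 identifiers matched it, and the deposited table holds no coordinates. Replicate numbers were not taken to pair libraries. Alternatives covered the pseudocount, filter, scaling, replicate block, variance trend and samples fitted.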

Additional observations from a re-analysis of the deposited data

How the results depend on the processing

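No estimate for a tested member changed sign in any alternative. The wox5-1 count of 20 members higher was 4 with a pseudocount of 0.1 FPKM, 9 with no filter, 9 of 19 with a mean of at least 5 FPKM, 7 with the replicate block, and 0 to 31 with 1 library left out. The seu-3 count of 33 lower was 16 of 19 tested with a mean of at least 5 FPKM and 27 to 34 with 1 library left out. For seu-3 against wox5-1 the count of 39 was 19 of 19 with that filter and 37 with median-ratio scaling. It was 38 to 39 with 1 library left out. The F test passed for 18 of 19 with that filter, 36 with median-ratio scaling and 35 to 39 with 1 library left out. These filter counts have fewer genes tested. The other causes were not tested.

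Over all genes, those higher in wox5-1 numbered 1432 with the replicate block and 524 to 3270 with 1 library left out, and those lower 997 to 2358. In seu-3, with median-ratio scaling, 3186 were higher and 2934 lower, and higher genes numbered 681 to 1305 with 1 library left out. Against wox5-1, 5618 were higher in seu-3 with that scaling. For the other mitosis and cell cycle genes, the wox5-1 count was 15 with a pseudocount of 0.1 FPKM, 16 with no filter, 12 with a mean of at least 5 FPKM, 12 with the replicate block and 5 to 35 with 1 library left out. Their seu-3 count was 17 with a mean of at least 5 FPKM, 24 with median-ratio scaling and 28 to 51 with 1 library left out, and 26 differed between mutants with that filter. S phase genes called in wox5-1 were 1 with a pseudocount of 0.1 FPKM, 0 with no filter, 0 with the replicate block, 8 with only the 6 samples compared and 0 to 8 with 1 library left out. In seu-3 they were 7 with median-ratio scaling and 7 to 12 with 1 library left out. Correlations of same-numbered libraries ran from -0.263 to 0.193, and those of other pairs across genotypes from -0.362 to 0.346. Whether same-numbered libraries shared a sowing or batch cannot be told from these correlations. Depth is not known well enough to give counting error, which limits members near 1 FPKM most.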

Other observations

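Paralogs and partners of the mitotic genes did not all follow them. These genes and ratios of FPKM were chosen after their values were seen, and the ratios were not tested. AUR1 relative to AUR2 was 0.847 to 1.22 in Col-0, 0.690 to 1.09 in seu-3 and 1.62 to 2.14 in wox5-1, so only the wox5-1 libraries stood apart. CCS52A1, an activator of the anaphase-promoting complex known for its part in the onset of endoreduplication, was at 45.6, 36.0 and 35.1 FPKM in Col-0, 39.9, 39.7 and 41.1 FPKM in seu-3 and 36.7, 35.2 and 40.1 FPKM in wox5-1, with overlapping genotypes, and passed in no comparison. CCS52B relative to CCS52A1 was therefore 0.163 to 0.223 in Col-0, 0.0263 to 0.0770 in seu-3 and 0.306 to 0.363 in wox5-1. KEULE, the protein that keeps KNOLLE ready for fusion, was at 55.2, 55.7 and 62.1 FPKM in Col-0, 58.9, 53.7 and 62.0 FPKM in seu-3 and 38.6, 53.2 and 49.8 FPKM in wox5-1, and passed in no comparison. KNOLLE relative to KEULE was 0.213 to 0.287 in Col-0, 0.0263 to 0.128 in seu-3 and 0.501 to 0.850 in wox5-1.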
